A study of Sus scrofa with 6 samples.

Results

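The genes described here are the complement components whose RNA was listed in pig blood mononuclear cells. They were chosen by symbol from 8 names (C1QA, C1QB, C1QC, C2, C3, CFB, CFD and CFP), of which 7 matched a row of the 11564 genes in the deposited table. CFB was not analysed here. RNA-seq libraries had been made from peripheral blood mononuclear cells (PBMCs, the lymphocytes and monocytes of blood) of 6 Yorkshire pigs at 6 months of age, each library from another animal. Of these, 3 were labelled wild type (WT) and 3 Leptin-overexpressing. The transgene was the pig leptin coding sequence under a leptin promoter, introduced into fibroblasts of a male fetus that were drug-selected and used as nuclear donors, so the transgenic line descends from cloned cells. Levels are in FPKM, that is fragments scaled by transcript length and by library total, so genes can be compared by level.

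Complement is a cascade of plasma proteins that marks microbes, immune complexes and dying cells for removal. In the classical pathway the hexameric C1q, built from the chains of C1QA, C1QB and C1QC, recognises bound antibody, and C2 supplies the protease part of the enzyme that cleaves C3. In the alternative pathway, factor D (CFD, also called adipsin) cleaves factor B (CFB), and properdin (CFP) stabilises the resulting enzyme on surfaces. Inherited lack of C1q or C2 is a known risk for systemic lupus erythematosus, and low plasma C3 is a usual sign of active disease. Most plasma complement is made by the liver, whereas C1q is made by macrophages and dendritic cells, properdin by myeloid cells and factor D by adipocytes and monocytes.

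The labels were first checked against LEP, the transgene's own sequence. Under the wild type label, LEP reached 50.0 FPKM in replicate 1, was listed at 0 in replicate 2 and stood at 0.118 FPKM in replicate 3. Under the leptin-overexpressing label it was listed at 0 in replicate 1 and stood at 18.3 and 39.3 FPKM in replicates 2 and 3. Both replicate 1 libraries therefore go against their labels, and the difference of each component is also given without them. Rows of the Y chromosome, 7 in all, were at 1 FPKM or more in wild type replicates 1 and 2 and leptin-overexpressing replicate 1, and 0 of the 7 reached 1 FPKM in the other 3 libraries, which include leptin-overexpressing replicates 2 and 3, although the donor fetus of the transgenic line was male. Markers of the labelled cells were present, with CD3E of T cells at 213 to 372 FPKM, CD79A of B cells at 133 to 248 FPKM, and the monocyte genes CD14 at 99.9 to 291 FPKM, LYZ at 129 to 442 FPKM and CSF1R at 50.8 to 73.8 FPKM.

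The components differed widely in level. CFD was by far the highest, between 732 and 1784 FPKM, and ranked between 28 and 96 among the 11564 genes of each library. CFP lay between 29.1 and 55.9 FPKM and C2 between 23.0 and 42.4 FPKM. CFP was above C2 in 5 of the 6 libraries, the ratio of C2 to CFP running from 0.588 to 1.31, so these neighbours in the order overlapped in level. C3 was lower, between 2.78 and 5.10 FPKM, and below C2 in all 6 libraries by a factor of 4.51 to 11.2. The C1q chains were lowest and stood under 1 FPKM in 5 of the 6 libraries.

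**Figure D1:**
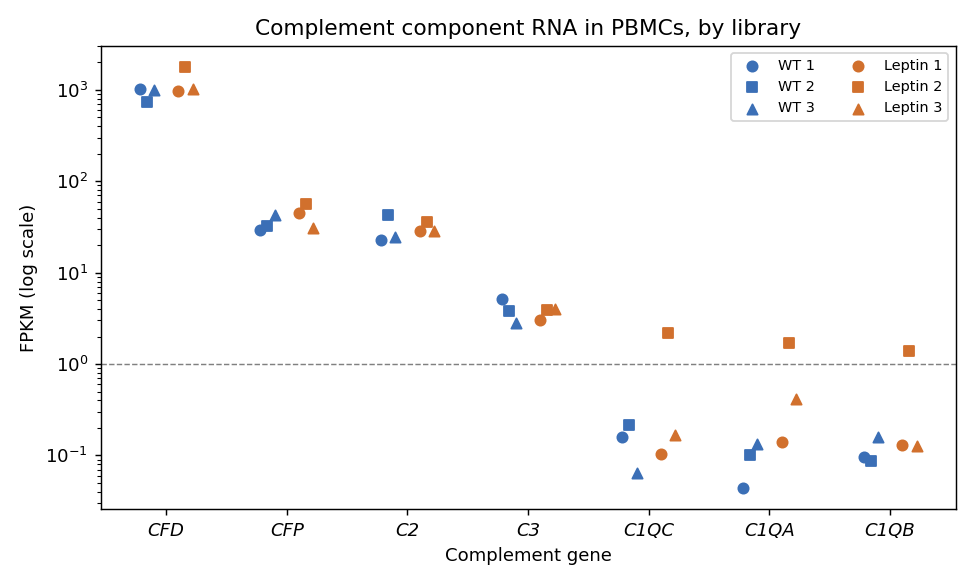
FPKM (log scale) of the 7 complement genes in each library, ordered by mean level; WT is the wild type label, Leptin the leptin-overexpressing label, and the dashed line marks 1 FPKM. CFD sits between 732 and 1784 FPKM in every library, while the C1q genes pass 1 FPKM only in leptin-overexpressing replicate 2.

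None of the 4 components that could be tested differed between the labels beyond the spread between libraries. All 10735 genes that reached 1 FPKM in at least 3 libraries were fitted with limma on the log2(FPKM + 1) scale, and p was adjusted over all of them by the Benjamini-Hochberg method. With an adjusted p under 0.05, 0 of the 4 components were called, where 0.00932% of all genes tested were. With the unadjusted limma p under 0.05, 0 of the 4 were called in either direction, against a background of 3.18% (1.98% higher and 1.19% lower under the leptin-overexpressing label). The balance of that background (213 genes higher and 128 lower) depended on the processing. It turned with median-of-ratios scaling of the libraries (167 higher and 249 lower of 10708) and without both replicate 1 libraries (104 and 138 of 10431). Without wild type replicate 3 it was 608 and 238 of 10588. The groups overlapped for all 4, and 7.63% of the genes tested had groups that did not overlap. The median log2 fold change of these 4 genes was 0.19 (leptin-overexpressing minus wild type labels), beside 0.059 over all genes tested. With median-of-ratios scaling the median over all genes was 0.0022. C1QA, C1QB and C1QC did not enter this test, since they reached 1 FPKM in 1 library only. In bulk RNA, fewer cells of a type and less RNA per cell cannot be told apart.

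The 3 chains of C1q, the recognition protein of the classical pathway, were above 1 FPKM in leptin-overexpressing replicate 2 and below it in the other 5 libraries. The deposited table holds only genes with at least 1 FPKM in some library, and the C1q rows are in it only through that library. That some library reaches 1 FPKM was therefore set by the filter, and the C1q values are given as a description with no test between labels. The filter does not set which library it is, and leptin-overexpressing replicate 2 was the highest library for 18.8% of the 829 rows that did not enter the limma test. C1QA (ENSSSCG00000003524, chromosome 6 from 74609911 to 74612993) codes for the A chain of C1q. C1QA was at 0.0437, 0.0997 and 0.133 FPKM in wild type replicates 1, 2 and 3, and at 0.142, 1.72 and 0.416 FPKM in leptin-overexpressing replicates 1, 2 and 3. The lowest leptin-overexpressing value lay just above the highest wild type value, so the groups did not overlap, as for 4.96% of all rows in that direction, from which nothing is read for a row admitted through its high library. Their difference in mean log2(FPKM + 1) was 0.59. It was 0.22 without leptin-overexpressing replicate 2, 0.81 without both replicate 1 libraries, and 0.44 with Y-linked RNA as a covariate.

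C1QB (ENSSSCG00000003526, chromosome 6 from 74625258 to 74629862) codes for the B chain and was at 0.0971, 0.0863 and 0.159 FPKM under the wild type label and 0.130, 1.40 and 0.127 FPKM under the leptin-overexpressing label. C1QC (ENSSSCG00000003525, chromosome 6 from 74616232 to 74621248), the C chain, was at 0.158, 0.217 and 0.0642 FPKM and at 0.103, 2.19 and 0.167 FPKM in the same order. For both genes a single library, leptin-overexpressing replicate 2, stood apart and the other 5 libraries overlapped. In that library C1QA was 4.13 times, C1QB 8.80 times and C1QC 10.1 times the next highest library. The differences in mean log2(FPKM + 1) were 0.38 for C1QB and 0.48 for C1QC. They came to 0.020 and -0.013 without leptin-overexpressing replicate 2, and to 0.55 and 0.76 without both replicate 1 libraries.

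**Figure D2:**
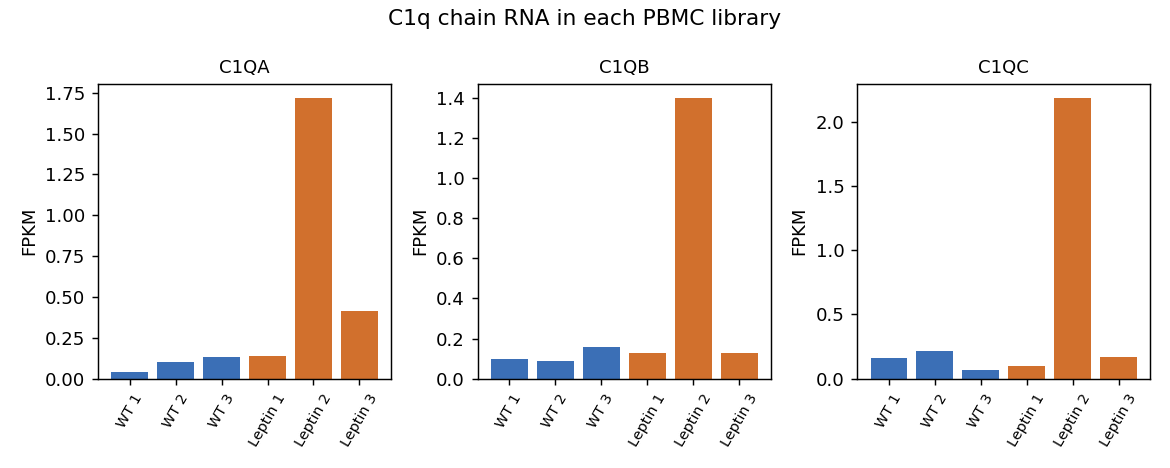
FPKM of the 3 C1q chain genes in each library, 1 bar per library, with separate linear axes that start at 0. The bar of leptin-overexpressing replicate 2 reaches 1.72, 1.40 and 2.19 FPKM, and the next highest bar of any chain is C1QA in leptin-overexpressing replicate 3 at 0.416 FPKM.

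The smallest C1QA values differ by very little. Low FPKM values of some genes come out as whole multiples of 1 step, whose relative size in each library was estimated from 243 low genes other than the components. In 44 of them all non-zero values of up to 8 steps were within 0.06 of a whole number. The sizes were fitted on these same genes, so that count is no check of them, and what share chance gives was not tested. On that scale C1QA stood at 1, 2 and 3 steps under the wild type label and at 3, 33 and 9 steps under the leptin-overexpressing label, with its values under 10 steps at most 0.0598 from a whole number. By these steps a wild type and a leptin-overexpressing library share the value of 3, although the C1QA groups do not overlap in FPKM. The step of C1QA was itself fitted to its values. C1QB and C1QC values did not come out whole within 0.06 of a step, and whether a step is 1 fragment was not tested.

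The relation between the chains over the 6 libraries is also given as a description with no test, since all 3 are in the table through leptin-overexpressing replicate 2. Pearson's r on log2(FPKM + 1) was 0.962 for C1QA and C1QB, 0.954 for C1QA and C1QC, and 0.984 for C1QB and C1QC, while Spearman's rho, which gives that library no more weight than another, was 0.714, 0.371 and -0.086. Without the 2 libraries farthest from the median of the first gene, of which leptin-overexpressing replicate 2 was 1 in each pair, r was 0.689, -0.57 and -0.81. The high r of C1QC with either other chain thus rests on the libraries left out.

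Values of 3 other low rows, which likewise reached 1 FPKM in leptin-overexpressing replicate 2 only and so are in the table only through it, are given as a description. ENSSSCG00000003528, a row with no symbol next to C1QB (chromosome 6 from 74644743 to 74646479), singled out after its values were seen, was at 1.83 FPKM there and between 0.0813 and 0.296 FPKM in the other 5. Of the monocyte and macrophage list, the scavenger receptor MARCO was at 1.09 FPKM there, listed at 0 in leptin-overexpressing replicate 1 and at most 0.366 FPKM elsewhere. The mannose receptor MRC1, another macrophage gene, was at 1.27 FPKM there and between 0.144 and 0.689 FPKM in the others. Of the 12 rows of that list, matched from 14 symbols, 5 were highest in that library and 7 in another one. Among the 5 are MARCO and MRC1, and nothing is read from their being highest there. That library was the highest for 14.8% of all genes tested. The sums of the list were 599 to 1123 FPKM under the wild type label and 795 to 1239 FPKM under the leptin-overexpressing label. The highest sum was that of leptin-overexpressing replicate 2, and the part of these cells in the C1q values was not tested. The row named CD163 in the table, lowest in that library at 0.824 FPKM and at 1.35 to 1.76 FPKM in the others, carries the name SCART1 in the reference table of gene names, so its identity is uncertain, and it is 1 of the 12 rows in these sums and in the mean of the list.

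Likeness to each component was measured as the root mean square difference of centred log2(FPKM + 1) over the 6 libraries, among 5902 named genes with a mean of at least 5 FPKM. For the C1q chains the measure turns on leptin-overexpressing replicate 2 alone, because the pseudocount of 1 flattens their values under 1 FPKM in the other libraries. Nearest to C1QA was CHI3L1, a secreted chitinase-like protein of macrophages and neutrophils, at a difference of 0.0771. CHI3L1 was at 197, 231 and 211 FPKM under the wild type label and at 236, 534 and 257 FPKM under the leptin-overexpressing label, a far narrower relative range than that of C1QA. It was also nearest to C1QC, at 0.151, and SDS, the enzyme serine dehydratase, was nearest to C1QB, at 0.101. B9D2 and PNKD followed for C1QA, GNG10 and FUCA1 for C1QB, and UBAP1 and ABHD17C for C1QC.

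C2, the next protease of the classical pathway, is listed as ENSSSCG00000001422 on chromosome 7 from 27778159 to 27819252. It was at 23.0, 42.4 and 24.8 FPKM in wild type replicates 1 to 3 and at 28.5, 35.5 and 28.4 FPKM in leptin-overexpressing replicates 1 to 3. The highest library was wild type replicate 2 and the lowest wild type replicate 1, so the leptin-overexpressing values lay inside the wild type range. The group means were 30.1 ± 10.7 and 30.8 ± 4.10 FPKM (SD, n = 3 each). The log2 fold change was 0.079 (standard error 0.24, 95% interval -0.48 to 0.63, limma adjusted p = 0.993, exact permutation p = 0.8). It turned to -0.030 without both replicate 1 libraries, to -0.081 without wild type replicate 1, to -0.028 without wild type replicate 3 and to -0.025 without leptin-overexpressing replicate 2. After the mean of the 10 tested rows of the monocyte list was subtracted from each library, it was -0.011. Without wild type replicate 2, the highest library, it was 0.35. The C2 locus is 41094 bp long in the table and contains the row of ZBTB12, which was at 1.74 to 3.40 FPKM. CFB is the neighbour of C2 in the RefSeq annotation of Sscrofa11.1, and whether its fragments were counted under C2 was not tested.

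C2 and the interferon-stimulated genes shared their highest and next highest library, but not the order below these. The mean log2(FPKM + 1) of 20 rows matched from 22 such symbols was 7.04 in wild type replicate 2, 6.54 in leptin-overexpressing replicate 2 and 6.49 in wild type replicate 1, and 5.59 to 5.90 in the other libraries. The first of these libraries also held the highest C2 value and the next the next highest, while wild type replicate 1 held the lowest C2 value. SERPING1 (C1 inhibitor, which blocks the proteases of the C1 complex) was at 39.8, 66.1 and 23.2 FPKM under the wild type label and at 30.4, 54.4 and 39.0 FPKM under the leptin-overexpressing label. Its 4 highest libraries came in the same order as those of the interferon-stimulated list. The sums of that list ran from 2028 to 6251 FPKM and from 2117 to 4705 FPKM under the respective labels, and its part in C2 was not tested. The genes nearest to C2 were CHMP5, at a difference of 0.0649, MFSD12 at 0.0768 and PAFAH2 at 0.0768.

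**Figure D3:**
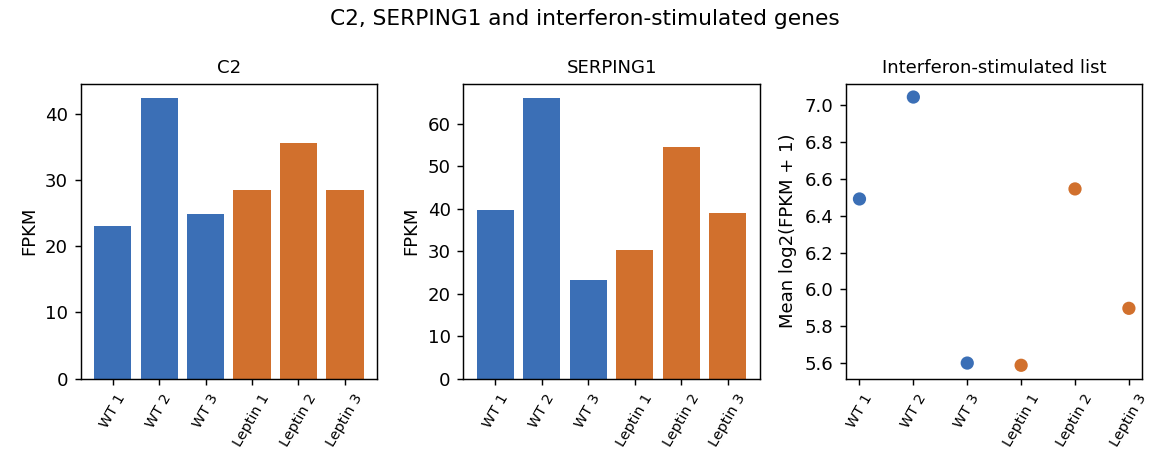
FPKM of C2 and SERPING1 in each library (bars, axes from 0) beside the mean log2(FPKM + 1) of the interferon-stimulated list (points, axis not from 0). Wild type replicate 2 is highest in all 3 panels, at 42.4 FPKM, 66.1 FPKM and 7.04, and leptin-overexpressing replicate 2 follows.

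C3, on which all pathways converge, was listed as ENSSSCG00000013551 on chromosome 2 from 72761362 to 72787995. Its values were 5.10, 3.77 and 2.78 FPKM under the wild type label and 3.03, 3.93 and 3.98 FPKM under the leptin-overexpressing label. Wild type replicates 1 and 3 were the highest and the lowest of the 6, and the leptin-overexpressing values again lay between them. Group means were 3.89 ± 1.17 and 3.64 ± 0.536 FPKM (SD, n = 3 each), and the log2 fold change was -0.052 (standard error 0.20, 95% interval -0.52 to 0.42, limma adjusted p = 0.993, exact permutation p = 1). The sign turned without both replicate 1 libraries (0.22), without wild type replicate 1 (0.12) and without leptin-overexpressing replicate 1 (0.047).

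Wild type replicate 1, the library with the highest C3, also had the highest sum of neutrophil markers, although MMP9 and ELANE of that list were highest in other libraries. The 8 rows matched from 12 neutrophil symbols summed to 416 to 3532 FPKM under the wild type label and to 414 to 1272 FPKM under the leptin-overexpressing label. Liver is the main source of plasma C3, and 6 rows matched from 10 hepatocyte symbols summed to 25.1 to 33.8 FPKM and to 18.3 to 21.4 FPKM in the same order. These sums were not tested between labels, and HP alone was at 9.34 to 23.1 FPKM. Albumin (ALB), the defining hepatocyte product, was at 4.79, 5.84 and 5.02 FPKM under the wild type label and 2.85, 2.49 and 3.42 FPKM under the leptin-overexpressing label, a level like that of C3. Of the 4 tested rows of that list, ALB was the 1 whose groups did not overlap (2.63% of genes tested were lower in this way). Its log2 fold change was -0.67, with an unadjusted p of 0.00257 and an adjusted p of 0.993 in limma. The part of either list in C3 was not tested. Nearest to C3 in pattern were CREBRF, at a difference of 0.0537, CLIP1 at 0.0581 and PLK3 at 0.0717.

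Of the alternative pathway genes, CFD (ENSSSCG00000013418, chromosome 2 from 77485871 to 77487847) codes for the protease that starts the amplification loop. It was at 1035, 732 and 1004 FPKM in wild type replicates 1 to 3 and at 965, 1784 and 1019 FPKM in leptin-overexpressing replicates 1 to 3. Leptin-overexpressing replicate 2 was 1.72 times the next highest library, and leptin-overexpressing replicates 1 and 3 lay inside the wild type range. The group means were 924 ± 167 and 1256 ± 458 FPKM (SD, n = 3 each). A log2 fold change of 0.40 (standard error 0.26, 95% interval -0.20 to 1.01) did not pass the limma test (adjusted p = 0.993), and the exact permutation p was 0.5. It was 0.65 without both replicate 1 libraries, 0.12 without leptin-overexpressing replicate 2 and 0.29 with Y-linked RNA as a covariate.

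CFD is also made by adipocytes, and 3 rows matched from 8 adipocyte symbols (LIPE, PNPLA2 and CD36) summed to 41.5 to 48.1 FPKM under the wild type label and 48.3 to 58.7 FPKM under the leptin-overexpressing label. The sums were not tested, each of the 3 genes overlapped between the labels, and 0 of them had an unadjusted limma p under 0.05. Adiponectin and perilipin 1, which define the cell type, were not analysed here, and the part of adipocyte RNA in CFD was not tested. The highest value among the 3 adipocyte rows was 43.2 FPKM for PNPLA2, and their ratio to CFD in adipocytes was not tested. CFD shared its highest library, leptin-overexpressing replicate 2, with the monocyte list. The mean log2(FPKM + 1) of that list was 4.79 there and 4.13 to 4.61 in the others. It covers 12 rows, and MARCO and MRC1 among them are in the table only through that library. CFD was lowest in wild type replicate 2, where that mean was 4.52, so the lower libraries did not keep the same order. The mean used for subtraction was that of the 10 tested rows of the list, which leaves out MARCO and MRC1. After its subtraction the log2 fold change of CFD was 0.31. ORAI2, a calcium channel subunit, was the nearest gene to CFD at 0.0956, before RELT at 0.101 and TXN at 0.108.

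CFP (ENSSSCG00000012278, chromosome X from 47326118 to 47335184), properdin, is the positive regulator of the alternative pathway. CFP was at 29.1, 32.5 and 42.2 FPKM under the wild type label and at 45.0, 55.9 and 30.7 FPKM under the leptin-overexpressing label. Its highest 2 libraries carried the leptin-overexpressing label, while leptin-overexpressing replicate 3 lay below wild type replicates 2 and 3. Means were 34.6 ± 6.84 and 43.9 ± 12.6 FPKM (SD, n = 3 each), and the log2 fold change was 0.31 (standard error 0.24, 95% interval -0.25 to 0.87, limma adjusted p = 0.993, exact permutation p = 0.3). The value was 0.16 without both replicate 1 libraries, 0.12 without leptin-overexpressing replicate 2, 0.54 without leptin-overexpressing replicate 3 and 0.22 after subtraction of the monocyte mean. As an X-linked gene it was also fitted with Y-linked RNA as a covariate, which gave 0.25. CORO1B, at a difference of 0.0627, RRAS at 0.0818 and PIR at 0.0948 were its nearest genes.

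**Figure D4:**
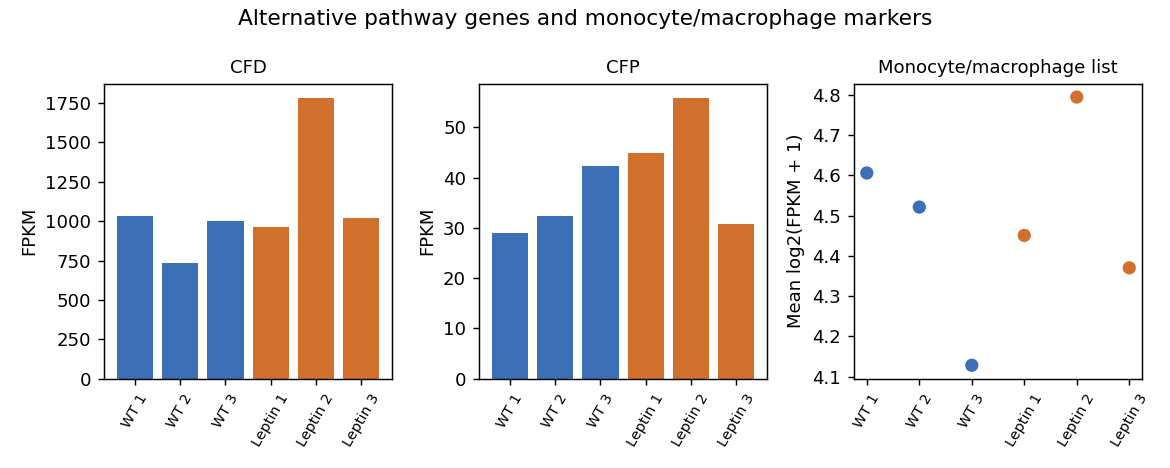
FPKM of CFD and CFP in each library (bars, axes from 0) beside the mean log2(FPKM + 1) of the monocyte and macrophage list (points, axis not from 0). Leptin-overexpressing replicate 2 is highest in each panel, at 1784 FPKM, 55.9 FPKM and 4.79. The list includes MARCO and MRC1, which are in the table only through that library.

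By the pathway annotation in the deposited table, 5 of the 7 components (C1QA, C1QB, C2, C3 and CFD) belong to the KEGG complement and coagulation cascades, among 21 annotated rows. The first 4 of these also belong to the KEGG systemic lupus erythematosus pathway, among 32 rows. These annotations carry no direction.

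The wider complement system was read from lists of other genes. Of 46 symbols for other recognition proteins, proteases, terminal components, regulators and receptors, 18 rows were found and 17 tested. Of these, 11 had a positive and 6 a negative log2 fold change, with a median of 0.046 beside 0.059 over all genes tested. The limma adjusted p was under 0.05 for 0 of the 17, against 0.00932% of all genes, and the unadjusted p for 1 (background 3.18%). None of the 18 rows found was a component of the terminal membrane attack complex, so that complex was not analysed here.

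The recognition and protease list had 2 genes tested. FCN2, a ficolin of the lectin pathway, was at 4.99, 6.47 and 6.48 FPKM under the wild type label and 5.98, 8.48 and 4.68 FPKM under the leptin-overexpressing label. MASP2, the lectin pathway protease, was at 4.0, 6.29 and 4.35 FPKM and at 6.12, 4.49 and 4.69 FPKM in the same order. Both overlapped between the labels, with log2 fold changes of 0.055 and 0.065.

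The regulators ranged widely in level, and the 4 with the highest means are given here. CLU (clusterin, an inhibitor of the terminal complex) ran from 103 to 320 FPKM under the wild type label and from 107 to 270 FPKM under the leptin-overexpressing label. CD55, which speeds the decay of the C3-cleaving enzymes on the cell's own surface, was at 119, 90.8 and 83.0 FPKM and at 69.3, 64.6 and 98.6 FPKM. The log2 fold change of CD55 was -0.34 (95% interval -0.83 to 0.16, limma adjusted p = 0.993), and leptin-overexpressing replicate 3 lay above 2 of the wild type libraries. C4BPA, a chain of the C4b-binding protein, was at 109, 67.6 and 36.8 FPKM and at 34.2, 83.4 and 52.1 FPKM. SERPING1 had a log2 fold change of 0.024. None of the 6 regulators tested had an unadjusted limma p under 0.05, and their median log2 fold change was 0.016.

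Among the 9 rows of the receptor list, ITGB2, the shared beta chain of complement receptors 3 and 4, ran from 382 to 443 FPKM over all 6 libraries. ITGAM, the alpha chain of complement receptor 3, was at 33.4 to 52.7 FPKM, and CALR (calreticulin, which binds C1q) at 167 to 231 FPKM. C5AR1, the receptor for the fragment C5a, was at 284, 196 and 129 FPKM under the wild type label and at 134, 243 and 191 FPKM under the leptin-overexpressing label. CD302, at 3.24, 3.16 and 4.22 FPKM against 2.76, 1.94 and 1.79 FPKM, was the 1 gene of the wider lists whose groups did not overlap (2.63% of genes tested were lower in this way). Its log2 fold change was -0.53 with an unadjusted p of 0.0173 and an adjusted p of 0.993 in limma. CD302 is a C-type lectin of myeloid cells and is not an established complement receptor.

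**Figure D5:**
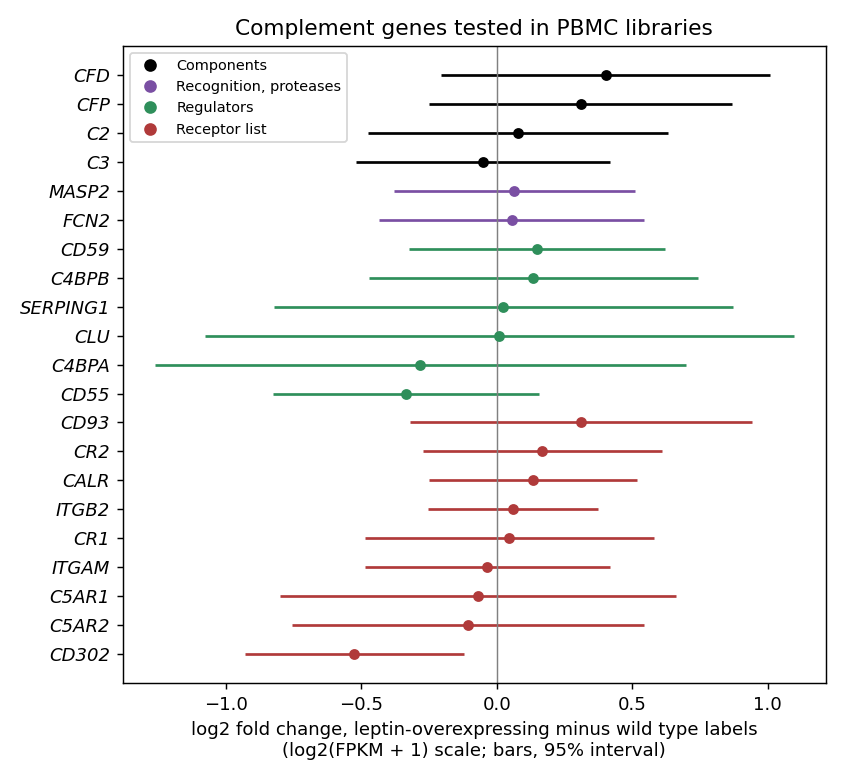
The log2 fold change between labels (leptin-overexpressing minus wild type, log2(FPKM + 1) scale) of the 4 components and the 17 genes tested from the wider complement lists, with 95% intervals from limma as bars. The intervals of all genes but CD302 include 0.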

How the data were processed

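The deposited table held 1 FPKM value per gene and library. The authors' text names Bowtie, the transcriptome of Ensembl version 75 and RSEM for the paired-end 101 bp reads (the labels call the libraries strand-specific), whereas the submitters' processing notes name STAR 2.5, Cuffnorm and DESeq 1.22.1, and the table does not settle which made it. Columns were matched to samples by animal code. The authors' log2 fold changes, p-values and FDR, also deposited, were not used. Coordinates are those of the table, which names no build. Library depth is not in the FPKM values, so precision rests on 3 libraries per label.

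Components and gene lists were chosen with earlier results of these data known. Named in full are all 7 components, and, within the wider complement lists only, up to 4 genes of each list by mean FPKM and genes with an unadjusted p under 0.05 or groups that do not overlap. Genes of the cell type and interferon lists are named only as checks. Of the rows without a symbol or with a clone name, 1513 took their name from a reference table of gene identifiers.

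Groups were compared with limma 3.58.1 in R 4.3.3 (log2(FPKM + 1), genotype only, two-sided, trend and robust off) and by exact permutation test in SciPy 1.17.1. The fit and the step estimate were first tested on simulated data. Alternatives were the pseudocount, the filter, median-of-ratios scaling, no moderation, trend with robust, the replicate block, libraries left out and subtraction of the monocyte mean. That mean was taken over the 10 tested rows of the monocyte list. The Y-linked covariate and the whole steps were chosen after seeing the data.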

Additional observations from a re-analysis of the deposited data

How the results depend on the processing

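None of the 4 components tested (C2, C3, CFD and CFP) had an adjusted p under 0.05 in limma under the 17 alternatives, and CFD and CFP kept a positive log2 fold change in all of theirs (0.12 to 0.65 and 0.12 to 0.54). For C2 the sign turned without both replicate 1 libraries (-0.030) and with the monocyte mean subtracted (-0.011), and leaving out each replicate in turn gave -0.081 to 0.35. For C3 the sign turned without both replicate 1 libraries (0.22), and leaving out each replicate gave -0.22 to 0.12. With median-of-ratios scaling the log2 fold change was 0.015 for C2, -0.11 for C3, 0.34 for CFD and 0.25 for CFP. With a pseudocount of 0.1 the difference rose to 1.70 for C1QA, 1.02 for C1QB and 1.07 for C1QC, and with a pseudocount of 5 it was 0.17, 0.11 and 0.16, since a larger pseudocount narrows differences between low values. Leaving out each replicate in turn, the differences of C1QA ranged from 0.22 to 0.85, those of C1QB from 0.020 to 0.56 and those of C1QC from -0.013 to 0.75. In these leave-one-out fits 0 to 1 components passed the unadjusted threshold in limma, the 1 being CFP without leptin-overexpressing replicate 3. Of all 10598 genes in that fit, 214 were higher and 159 lower at the same threshold. With the whole steps in place of FPKM, C1QA was at 0.53.

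Replicate numbers name different animals. The correlation across genes of same-numbered libraries' deviations was -0.284, 0.135 and -0.0073. These values depend on each other and differently numbered libraries were not compared, so they cannot decide whether the numbers pair the samples. A replicate block cannot move a fold change in this balanced design (C2 0.079, C3 -0.052, CFD 0.40, CFP 0.31), and with it the limma adjusted p was 0.999 for each of these 4 genes and 0 components were called. Where a result changed and no reason is given, the cause was not tested. Without read counts, levels near the C1q values cannot be compared between labels beyond the few steps given.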
